A study of Mus musculus with 2 samples.

Results

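The collagen and laminin genes are the subject here, the structural chains of the extracellular matrix. All mouse genes whose symbol is Col followed by a number, the letter a and a number, or Lama, Lamb or Lamc followed by a number, were taken, which gave 55 genes, 44 collagens and 11 laminins, of the 32285 mouse genes in the deposited tables. The study implanted GL261 cells, a mouse glioma line, into the brain and sequenced the tumour with its surrounding cells at day 24 by droplet-based single-cell RNA-seq. It asked what T-type calcium channels of the host tissue do in glioblastoma. The sample labelled Cav3.2KO came from mice of genotype Cacna1H-/-, by the label homozygous for loss of Cacna1h, the gene of the channel Cav3.2, and the sample labelled Wild Type came from C57BlL6 WT mice. The implanted line was the same in both, and the labels give no deletion in the tumour cells. Each group is 1 library, and the number, sex and age of the animals behind it are not given, so no spread between animals is available and no test of the labels can be made. The intervals below are exact and cover counting error only.

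Collagens are assembled from 3 chains. Fibrillar collagens (I, II, III, V, XI) build fibres, and II, IX and XI together form the thin fibrils of cartilage. Collagen IV and the laminins, each laminin made of an alpha, a beta and a gamma chain, form the basement membrane, which in the brain surrounds blood vessels and the brain surface. Normal brain parenchyma holds little fibrillar collagen. The multiplexins XV and XVIII link basement membranes to the tissue around them, and collagen VI forms beaded filaments next to them.

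The library labelled knockout held 6411 cells with 96566764 mouse UMIs (unique molecular identifiers, each marking a captured transcript), and the library labelled wild type held 3033 cells with 50130639, after removal of cells with few genes, a high mitochondrial share or a doublet call. Cacna1h, the deleted gene, had 158 UMIs (1.64 CPM, counts per 1000000 mouse UMIs of the cells in question) in the library labelled knockout and 8 UMIs (0.160 CPM) in the library labelled wild type, which goes against the labels. UMIs at the 3′ end of a gene need not stop when a part of it is deleted, and no source used here names the deleted part. The libraries are therefore named by their labels throughout. Xist, transcribed from the inactive X chromosome, had 38005 UMIs in the library labelled knockout and 7 in the library labelled wild type, while Y-linked genes had 3493 and 7253, so the levels of sex-linked genes move with the label. The libraries shared 6 kept barcodes. Classes and tumour states were built by clustering without the 55 genes and named by marker genes, so levels of collagens and laminins did not enter the clustering. The state markers were taken from earlier results of these data. Of the 16 tumour markers, tumour-like cells held 16 in the library labelled knockout, summing to 3834 CPM, and 14 in the library labelled wild type, summing to 3609 CPM. Tumour-like cells numbered 1078 and 680, endothelial-like cells 36 and 20, mural-like cells 15 and 13, and fibroblast-like cells 7 and 5 in the libraries labelled knockout and wild type.

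All 55 genes had at least 1 UMI. Together they made up 0.137% of the UMIs of the library labelled knockout and 0.167% of those of the library labelled wild type. Values of their own are given for 38 genes, 30 collagens and 8 laminins, and the other 17 had between 6 and 96 UMIs each over both libraries. Of the 38, 15 were highest in fibroblast-like cells, 10 in mural-like cells, 8 in tumour-like cells and 3 in endothelial-like cells. The ranking used the level over both libraries without a count minimum, so some places rest on few UMIs. Col22a1 was placed in fibroblast-like cells by 0 and 1 UMIs in the libraries labelled knockout and wild type, while tumour-like cells held 84 and 100. Col4a3 was placed in endothelial-like cells by 7 and 0 UMIs. Col27a1 was highest in an unnamed cluster that carried microglia markers, and Lamb3 was highest in B cell-like cells. Levels are in CPM within a class. Each UMI is a captured 3′ end, so levels set between genes compare captured transcripts and are not scaled by gene length.

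**Figure D1:**
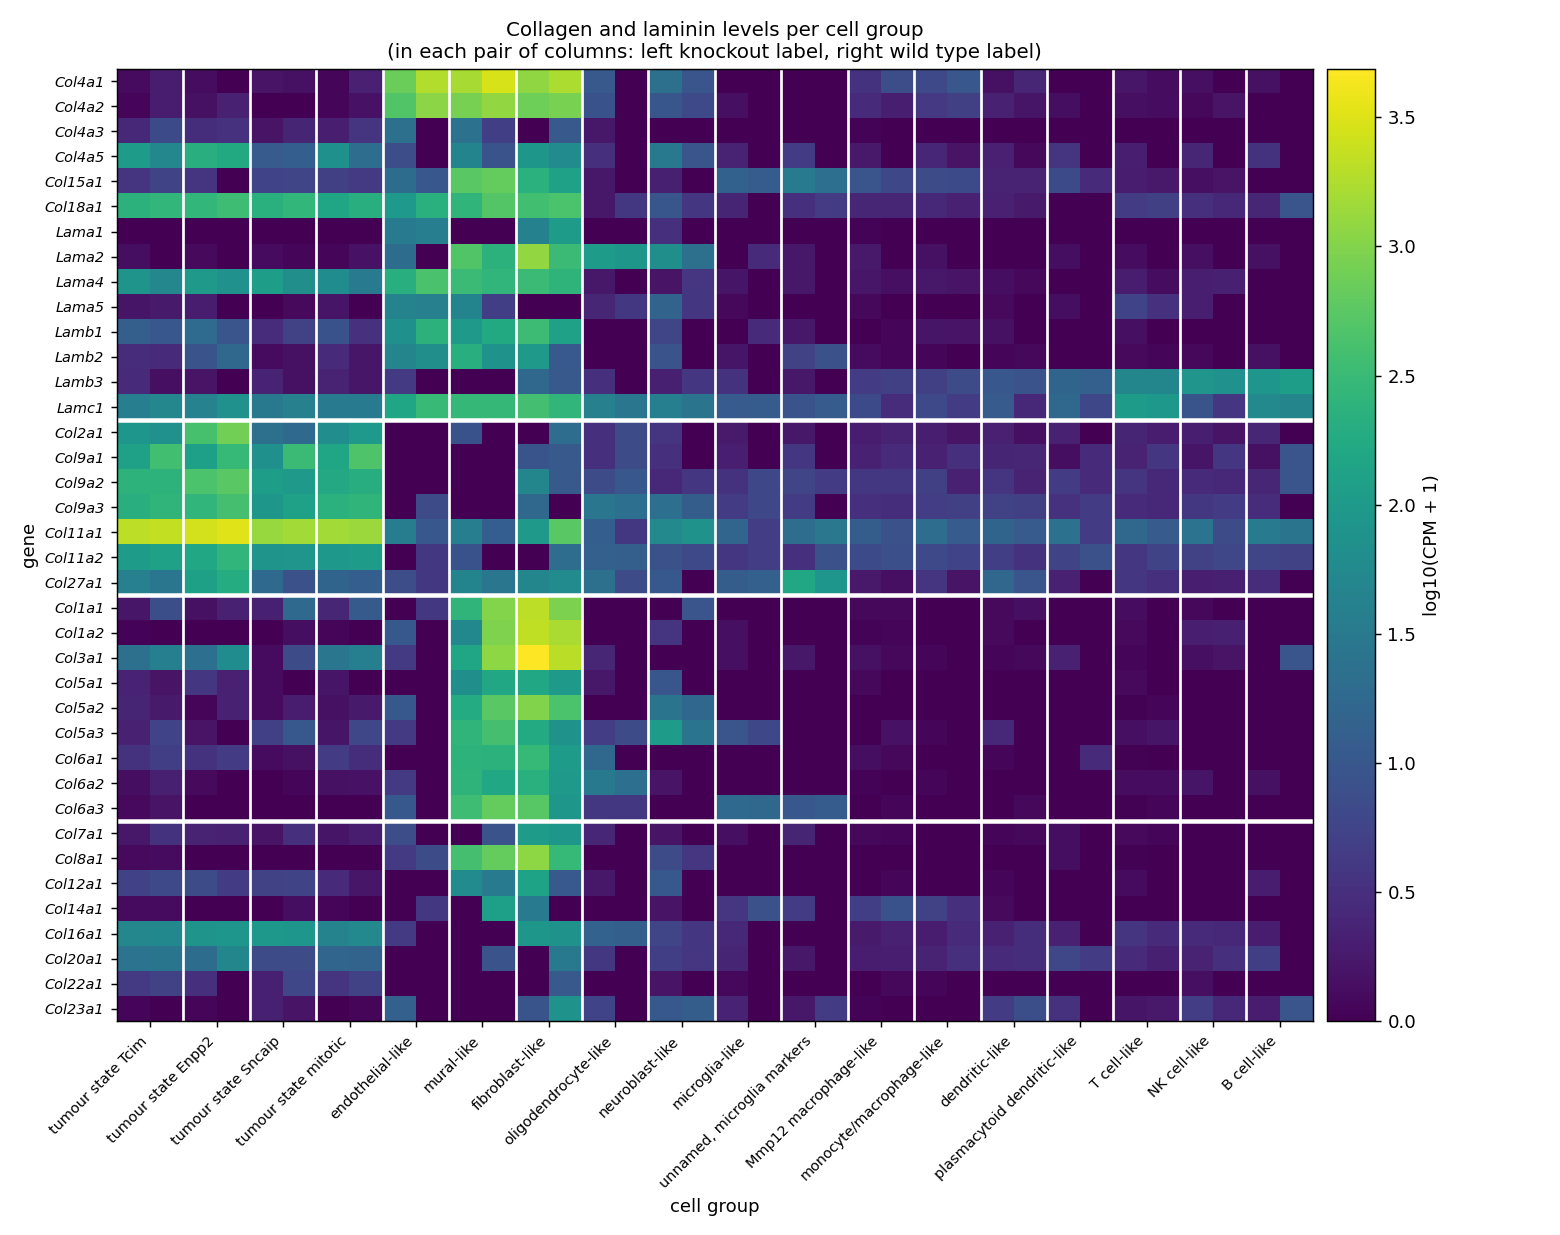
Levels of the named collagen and laminin genes (vertical axis) in each class or tumour state (horizontal axis), as log10 of CPM + 1 (colour), with the library labelled knockout left of the library labelled wild type. Collagens II, IX and XI fill the tumour columns, collagen IV and the laminin chains the endothelial and mural columns, and collagens I, III and VI the mural and fibroblast columns.

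Start-site sequences are given for 3 genes on which the results turn. Col11a1 carried most collagen UMIs of the tumour, and Col4a1 and Col4a2, the pair of chains of the common collagen IV molecule, led the vessels. The sequences are RefSeq windows of GRCm38.p6, 300 bases long, from 250 bases before to 50 after the start of the gene, 5′ to 3′ on the strand of the gene. Capitals mark GGGCGG (a GC box) and CCAAT, searched on both strands, so that CCGCCC and ATTGG are their other-strand forms. Windows were found for 40 of the 55 genes. The start sites of Col4a1 and Col4a2 lie 21 bases apart on opposite strands of chromosome 8, and their windows share 78 bases.
Col11a1 (chr3:114030290-114030589, plus strand): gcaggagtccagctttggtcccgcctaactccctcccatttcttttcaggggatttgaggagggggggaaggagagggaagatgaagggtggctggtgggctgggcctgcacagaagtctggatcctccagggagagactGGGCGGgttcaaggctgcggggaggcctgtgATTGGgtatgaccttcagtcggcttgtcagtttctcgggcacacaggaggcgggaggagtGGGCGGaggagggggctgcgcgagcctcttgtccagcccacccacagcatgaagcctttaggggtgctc
Col4a1 (chr8:11312777-11313076, minus strand): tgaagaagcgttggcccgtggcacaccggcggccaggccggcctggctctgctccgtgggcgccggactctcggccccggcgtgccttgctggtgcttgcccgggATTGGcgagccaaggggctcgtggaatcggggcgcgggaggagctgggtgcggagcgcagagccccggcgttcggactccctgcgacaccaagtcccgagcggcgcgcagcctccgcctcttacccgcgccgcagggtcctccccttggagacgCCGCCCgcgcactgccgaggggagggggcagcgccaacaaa
Col4a2 (chr8:11312555-11312854, plus strand): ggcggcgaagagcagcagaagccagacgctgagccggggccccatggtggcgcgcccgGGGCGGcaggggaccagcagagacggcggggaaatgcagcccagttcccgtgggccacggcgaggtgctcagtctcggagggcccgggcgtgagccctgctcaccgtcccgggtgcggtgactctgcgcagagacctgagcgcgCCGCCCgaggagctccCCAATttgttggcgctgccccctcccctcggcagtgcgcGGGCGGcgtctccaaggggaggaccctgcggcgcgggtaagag
The Col11a1 window held 2 GC boxes and 1 CCAAT, the Col4a1 window 1 and 1, and the Col4a2 window 3 and 1. The GC box of the Col4a1 window lies in the bases shared by both windows and is also 1 of the 3 of the Col4a2 window. GGGCGG occurred in 35.66% and CCAAT in 37.41% of all 32851 windows, so that a match is a description of the letters.

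Tumour-like cells carried a cartilage-type set of collagens. Collagens II, IX and XI, 6 genes, summed to 2948 CPM in tumour-like cells under the knockout label and 2728 in those of the library labelled wild type, and made up 81.7% of all collagen and laminin UMIs of these cells in the library labelled knockout. In T cell-like cells, set beside them as background, the 6 genes summed to 26.6 and 21.8. Col11a1, the alpha-1 chain of collagen XI, stood first at 2063 CPM (67611 UMIs) in the library labelled knockout and 1756 (39851 UMIs) in the library labelled wild type. When each cell was thinned to 2000 UMIs, Col11a1 was found in 89.0% of tumour-like cells under the knockout label and 86.4% of those of the library labelled wild type, against 3.71% and 2.33% of T cell-like cells. Without thinning, the shares in tumour-like cells were 98.7% and 97.9%, at median depths of 26621.5 and 30851.5 UMIs per cell, and T cell-like cells had median depths of 8416.5 and 7571.5. Col11a1 was therefore spread over nearly all tumour-like cells.

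The other 5 genes of the set were each well below Col11a1. Col9a2 and Col9a3, chains of the collagen IX that coats cartilage fibrils, had 265 and 217 CPM in the library labelled knockout, against 187 and 214 in the library labelled wild type. Col2a1, the single chain of collagen II, had 162 in the library labelled knockout and 84.4 in the library labelled wild type, and Col11a2, the alpha-2 chain of collagen XI, had 117 and 111. Col9a1, the remaining chain of collagen IX, had the widest ratio of the 6 between the labels, with 124 in the library labelled knockout and 376 in the library labelled wild type. Col2a1 was rarely found alone: 687 tumour-like cells under the knockout label held UMIs of Col2a1 and Col11a1 and 6 held Col2a1 without Col11a1, against 278 and 2 cells in the library labelled wild type. Col11a1 is the more abundant of the pair in UMIs, so it is also the more likely to be seen in a cell.

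Further members in tumour-like cells included chains of basement membranes, fibril-binding collagens and 2 more fibrillar collagens. Col18a1, whose cleaved end is endostatin, had 227 CPM in the library labelled knockout and 260 in the library labelled wild type. Lama4, an alpha chain of vessel and nerve laminins, had 84.7 and 52.5, Lamc1, the gamma chain of most laminins, had 36.5 and 42.7, and the beta chain gene Lamb1 had 11.8 and 5.38. Col4a5, an alpha chain of collagen IV on the X chromosome, had 115 and 32.5, while Col4a1 and Col4a2 were at 0.305 and 0.214 in the library labelled knockout and 0.793 and 0.485 in the library labelled wild type. Col4a5 was thus the only collagen IV chain above 10 CPM in tumour-like cells of either library, and its neighbour on chromosome X, Col4a6, whose start lies 1309 bases away on the other strand, had 29 UMIs beside 3773 of Col4a5 in the library labelled knockout and 16 beside 738 in the library labelled wild type. Lama1, the alpha chain of early embryonic laminin, had no UMI in tumour-like cells of either library, which allows up to 0.0915 and 0.132 CPM at a floor of 3 counts. Col16a1, which binds fibrils, had 62.2 and 65.8. Of the fibrillar collagens, Col27a1 had 55.1 and 21.6 and Col3a1 had 20.2 and 26.7.

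Within the tumour, 4 states were separated by clustering and identified by the mean fold over marker lists. For short, 3 of them bear the name of 1 gene of their list, and the other is named mitotic. The Tcim state held 448 and 249 cells, the Enpp2 state 395 and 56, the Sncaip state 110 and 257, and the mitotic state 125 and 118, in the libraries labelled knockout and wild type. Sncaip-state cells also carried mitotic markers (1983 and 1867 CPM summed, against 3815 and 3611 in the mitotic state). Summed over all 55 genes, the Enpp2 state was highest, with 5018 CPM in the library labelled knockout and 6681 in the library labelled wild type, and the Sncaip state lowest, with 2206 and 2690. The Tcim state had 3534 and 3921, and the mitotic state 2646 and 2935, so the order of the 4 states was the same in both libraries.

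The Enpp2 state was set apart by Col2a1. Col2a1 had 406 CPM in Enpp2-state cells of the library labelled knockout, against 69.1 in the other tumour-like cells, which is 5.88-fold higher (95% interval 5.54 to 6.23). In the library labelled wild type it had 800, against 56.8, which is 14.1-fold higher (12.8 to 15.5). Earlier results of these data already had Col2a1 as a leading gene of this state, so its level is a description. After thinning to 2000 UMIs, Col2a1 was found in 44.0% of Enpp2-state cells of the library labelled knockout and 53.6% of those of the library labelled wild type, against 0.314% of T cell-like cells of the library labelled knockout and 0 of 644 in the library labelled wild type (exact upper limit 0.571%). Without thinning the shares were 85.8% and 80.4% in Enpp2-state cells and 1.41% and 0.904% in T cell-like cells.

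Col27a1, a fibrillar collagen of cartilage, had 125 CPM in Enpp2-state cells and 28.8 in the other tumour-like cells under the knockout label, and 191 and 15.1 in the library labelled wild type. Lamb2, the beta chain of synaptic and vascular laminins, had 7.67 and 1.64 in the library labelled knockout and 16.6 and 0.961 in the library labelled wild type, the Enpp2 value there resting on 14 UMIs. Col4a5 was 2.60-fold and 6.46-fold higher and Col9a2 2.17-fold and 3.2-fold higher in the Enpp2 state. In all, 5 of 23 genes with at least 100 tumour UMIs were at least 2-fold higher in Enpp2-state cells in both libraries, against 3.80% of the 12594 genes measured. The 5 include Col2a1, already known from earlier results as a leading gene of this state, so the count is a description. Only Col1a1 was at least 2-fold lower (4.74% of measured genes), from 4 UMIs in the library labelled knockout and 1 in the library labelled wild type.

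In the Sncaip state 10 of the 23 genes were at least 2-fold lower than in the other tumour-like cells in both libraries (2.99% of measured genes). They were Col2a1, Col3a1, Col4a3, Col4a5, Col6a1, Col9a2, Col9a3, Col20a1, Col27a1 and Lamb2, which take in all 5 that were higher in the Enpp2 state, whose cells are part of the comparison here. Col6a1 and Lamb2 each had 1 UMI in this state in the library labelled knockout and 4 in the library labelled wild type. Col4a3 had 2 and 12, and its interval reached past 1 in the library labelled knockout. Col2a1 had 22.2 CPM in Sncaip-state cells of the library labelled knockout, 8.09-fold lower than in the other tumour-like cells, and 17.4 in those of the library labelled wild type, 7.19-fold lower. Col4a5 was 12.2-fold lower in the library labelled knockout and 3.83-fold lower in the library labelled wild type. Col3a1, the collagen III chain, had 1 UMI in this state in the library labelled knockout and 53 UMIs in the library labelled wild type. Only Col5a3, a collagen V chain, was at least 2-fold higher (2.12% of measured genes), at 4.06 and 9.45 CPM, and it did not pass with a looser cell filter or with a gate on single cells. Col11a1 itself was 1317 in the library labelled knockout and 1492 in the library labelled wild type.

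In the mitotic state Col27a1, Col12a1 and Lamb2 were at least 2-fold lower in both libraries and no gene was higher (3.81% and 2.19% of measured genes). Col12a1 and Lamb2 each had 12 UMIs in this state in the library labelled knockout and 4 in the library labelled wild type. For Lamb2 the interval reached past 1 in the library labelled wild type. In the Tcim state none of the 23 genes passed in either direction (0.381% of measured genes higher, 2.64% lower). Lama4, Lamc1, Col18a1 and Col16a1 passed in none of the 4 states. Col18a1 spanned 152 to 280 CPM over the states of the library labelled knockout and 214 to 349 over those of the library labelled wild type.

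**Figure D2:**
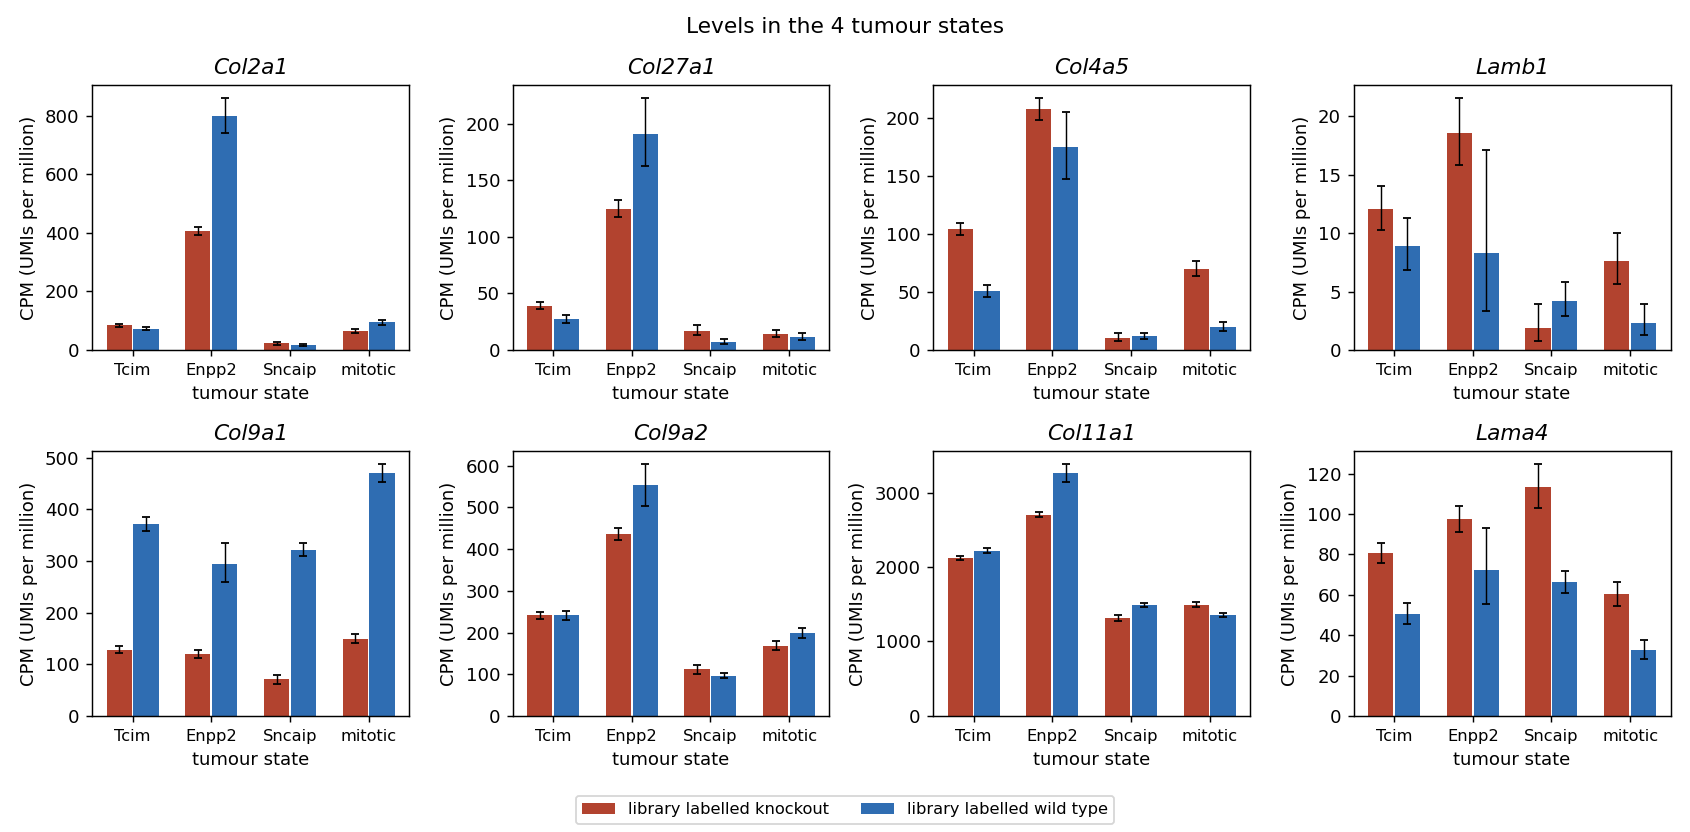
Levels (CPM, vertical axes) of selected collagen and laminin genes in the 4 tumour states (horizontal axes), the library labelled knockout drawn left of the library labelled wild type in each state. Bars are exact 95% counting intervals. Col2a1 and Col27a1 stand highest in the Enpp2 state in both libraries, and Col9a1 is lower in the library labelled knockout in all 4 states.

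**Figure D3:**
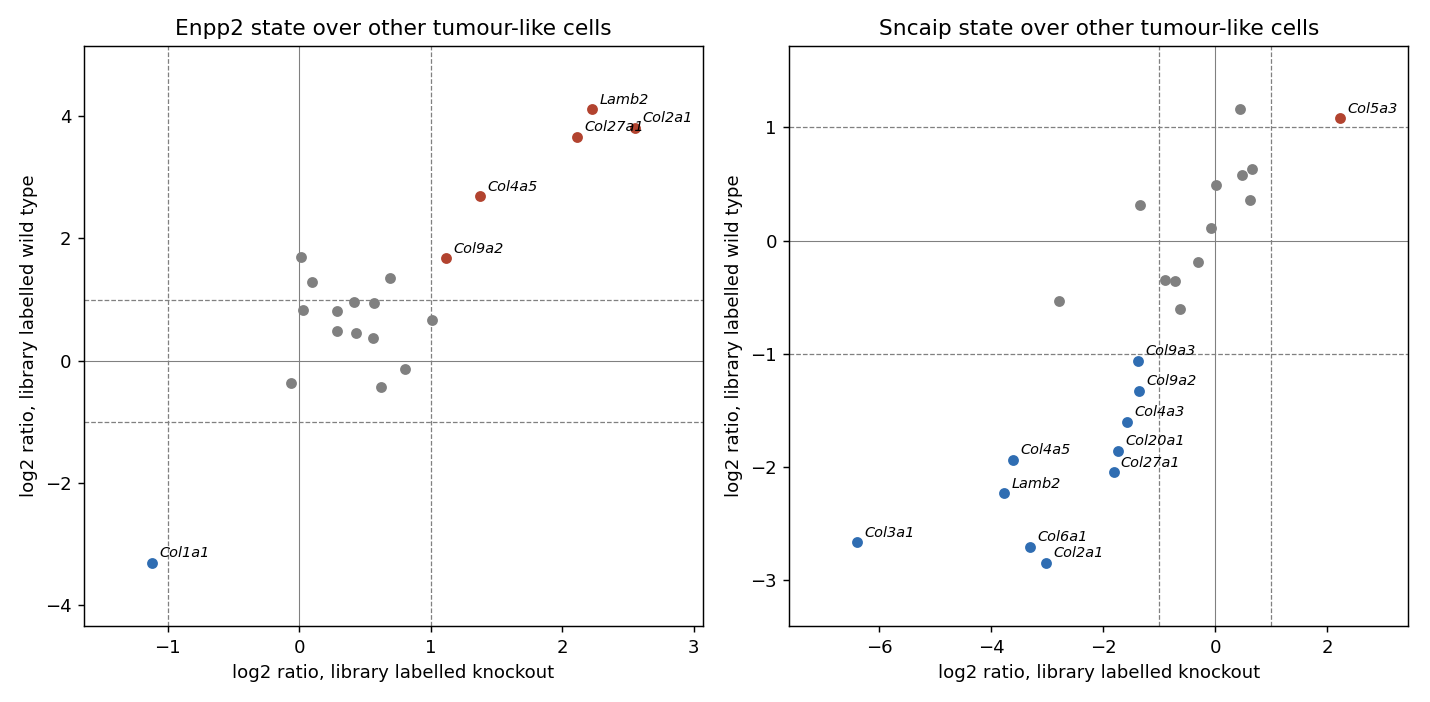
Log2 ratio of each gene's level in a state over the other tumour-like cells, in the library labelled wild type against the library labelled knockout, for 20 genes in the Enpp2 state and 23 in the Sncaip state. Dashed lines mark a 2-fold ratio, and coloured points pass it in both libraries. Col2a1 lies farthest to the right in the Enpp2 panel and lowest in the Sncaip panel.

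Between the labels, the summed level in tumour-like cells was 3610 CPM in the library labelled knockout and 3299 in the library labelled wild type, a log2 ratio of 0.13. Single genes moved more. Among the 23 genes measured, 6 stood at least 1.5-fold higher in the library labelled knockout (10.7% of measured genes), and 5 were at least 1.5-fold lower (7.14%). The other 12 were within 1.5-fold. The median log2 ratio of the 23 was 0.08, against 0.01 over all measured genes. These are differences between 1 library and 1 library, called by size alone.

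Col4a5 was 3.54-fold higher in the library labelled knockout (3.27 to 3.83), Col27a1 2.55-fold (2.30 to 2.82), Lamb1 2.19-fold (1.78 to 2.71), Lamb2 2.14-fold (1.45 to 3.22), Col2a1 1.92-fold (1.82 to 2.02) and Lama4 1.61-fold (1.51 to 1.73). The states are unequally filled: the Enpp2 state was 36.6% of tumour-like cells in the library labelled knockout and 8.24% in the library labelled wild type, and the Sncaip state 10.2% and 37.8%. With the 4 states weighted alike, Col2a1 was lower in the library labelled knockout (log2 ratio -0.77), as were Lamb2 (-0.74) and Col27a1 (-0.28), while Col4a5 (0.61), Lamb1 (0.76) and Lama4 (0.67) stayed higher. The weighting changes the shares of all 4 states at once, and the part of any one of them was not tested.

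Col9a1 was lower in every state. It had 128 CPM in Tcim-state cells of the library labelled knockout, against 372 in those of the library labelled wild type, and 120 against 295 in the Enpp2 state. It had 70.6 against 322 in the Sncaip state and 150 against 471 in the mitotic state. Over all tumour-like cells it was 3.03-fold lower (2.92 to 3.15), with a log2 ratio of -1.60, and -1.64 with the states weighted alike. After thinning, 18.3% of tumour-like cells under the knockout label and 39.9% of those of the library labelled wild type held Col9a1, against 0.314% and 0.621% of T cell-like cells. Without thinning the shares in tumour-like cells were 68.7% and 83.5%. The other collagen IX chains were within 1.5-fold, with log2 ratios of 0.02 for Col9a3 and 0.51 for Col9a2 over tumour-like cells, and of -0.39 and -0.19 with the states weighted alike.

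Col1a1, the alpha-1 chain of collagen I, was 13.9-fold lower in the library labelled knockout (9.31 to 21.4), at 0.824 CPM from 27 UMIs, against 11.4 from 259 UMIs in the library labelled wild type. Its UMIs lay in 23 of 1078 tumour-like cells under the knockout label and 130 of 680 of the library labelled wild type. They were nearly without the partner chain, since Col1a2 had 2 and 3 UMIs in these cells. Fibroblast-like cells held both chains, with 263 UMIs of Col1a1 and 270 of Col1a2 in the library labelled knockout and 94 and 169 in the library labelled wild type. Fibroblast markers summed to 56.4 CPM in tumour-like cells under the knockout label and 106 in those of the library labelled wild type, within which Slc47a1 had 28.7 and 63.1 and Pdgfra 22.1 and 31.95. Dcn, at 3995 and 1772 CPM in fibroblast-like cells, had 0.153 CPM in tumour-like cells under the knockout label, from 5 UMIs, and 1.41 in those under the wild type label, from 32 UMIs, 9.25-fold lower (3.58 to 30.4). The part of fibroblast RNA in the Col1a1 level was not tested. Col5a3 was 5.20-fold lower (3.64 to 7.58), Col4a3, a collagen IV chain, 2.12-fold lower, and Col22a1, a collagen of tissue junctions, 1.72-fold lower.

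The label contrast was also read within each state. In Tcim-state cells 2 of the 15 genes measured stood at least 1.5-fold higher in the library labelled knockout (4.82% of measured genes), Lama4 and Col4a5, and 2 were lower (5.68%), Col9a1 and Col3a1. In mitotic-state cells Lama4 and Col4a5 were again higher (8.67%) and Col9a1 alone was lower (6.10%) of 14 genes. In Sncaip-state cells Lama4 and Col27a1 were higher (7.11%) and Col9a1 and Col1a1 lower (5.77%) of 13 genes. Lama4 in the library labelled knockout was at 80.5 CPM in the Tcim state, 114 in the Sncaip state and 60.2 in the mitotic state. In the library labelled wild type it was at 50.5, 66.2 and 32.7.

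In the Enpp2 state nearly all calls were on the lower side. Of 15 measured genes, 8 were at least 1.5-fold lower in its cells of the library labelled knockout, where 6.27% of measured genes were, and only Lamb1 was higher (6.81%). The 8 were Col2a1, Col3a1, Col9a1, Col9a3, Col11a2, Col20a1, Col27a1 and Lamc1. Col2a1 was 1.97-fold lower (1.81 to 2.14) and Col3a1 2.91-fold lower (2.10 to 3.97). The median log2 ratio of the 15 was -0.59, against -0.05 over all measured genes. This state had 56 cells in the library labelled wild type, with a median of 14460 UMIs against 21854 in the library labelled knockout, and its own markers summed to 1877 CPM in the library labelled knockout and 1317 in the library labelled wild type. The part of these in the difference was not tested.

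**Figure D4:**
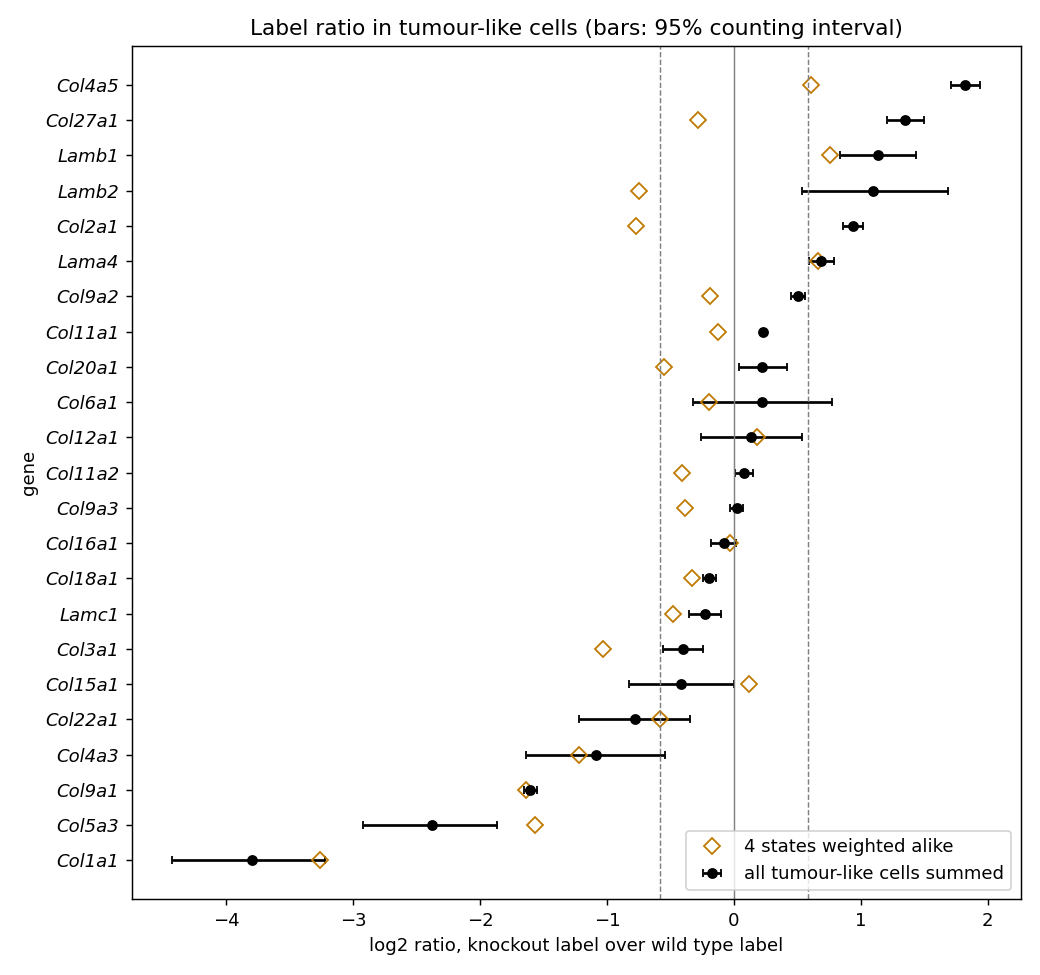
Log2 ratios, knockout label over wild type label, for the measured collagen and laminin genes (vertical axis) in tumour-like cells, with exact 95% counting intervals, beside the ratio with the 4 tumour states weighted alike. Col4a5 lies farthest to the right and Col1a1 farthest to the left, and of the 11 genes past 1.5-fold, Col2a1, Col27a1 and Lamb2 change side when the states are weighted alike.

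Endothelial-like and mural-like cells carried collagen IV and laminin chains, as did fibroblast-like cells. All 11 endothelial markers were found in endothelial-like cells, summing to 10508 CPM in the library labelled knockout and 12204 in the library labelled wild type, and all 9 mural markers in mural-like cells, summing to 19015 and 13878. Among 25 genes with enough UMIs, 7 stood at least 2-fold higher in endothelial-like than in tumour-like cells in both libraries (10.9% of 12772 measured genes), Col4a1, Col4a2, Lama4, Lamb1, Lamb2, Lamc1 and Col15a1. For Col15a1, with 6 and 3 UMIs, the interval reached below 1 in the library labelled wild type. The collagens II, IX and XI, with Col3a1, Col16a1, Col27a1 and Col4a5, made up the 10 that were at least 2-fold lower (11.5%).

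In endothelial-like cells Col4a1 had 735 CPM (643 to 836) in the library labelled knockout and 1815 (1673 to 1967) in the library labelled wild type, and Col4a2 had 478 and 1115. Lama4 had 212 and 426, Lamc1 149 and 308, and Lamb1 69.7 and 233, an alpha, a gamma and a beta chain that join into a laminin of vessels. Col18a1 had 98.2 and 217. All 6 were at least 1.5-fold lower in the library labelled knockout, of 9 genes with at least 20 UMIs, where 17.8% of measured genes were lower, and none was higher (15.0%). Col4a1 was 2.47-fold lower (2.12 to 2.89), Col4a2 2.33-fold (1.92 to 2.83), Lama4 2.01-fold (1.49 to 2.73), Lamc1 2.07-fold (1.45 to 2.99), Lamb1 3.34-fold (2.06 to 5.63) and Col18a1 2.21-fold (1.43 to 3.49). Lama5, Lama1 and Lamb2 were within 1.5-fold, at 44.4, 31.7 and 47.5 CPM in the library labelled knockout and 39.3, 36.2 and 66.5 in the library labelled wild type. The median log2 ratio of the 9 was -1.05, against -0.04 over all measured genes.

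Several values move with this difference. Of the 11 endothelial markers, 4 were themselves at least 1.5-fold lower in the library labelled knockout: Emcn 1.68-fold (1.39 to 2.05), Cdh5 1.66-fold (1.29 to 2.14), Pecam1 1.59-fold (1.28 to 1.97) and Tek 1.58-fold (1.12 to 2.25). Cldn5, the most abundant of them, was at 3507 and 3422 CPM. The part of these in the difference was not tested. Endothelial-like cells had a median of 4357.5 UMIs in the library labelled knockout and 14561 in the library labelled wild type. Among cells with at least 2000 UMIs, 22 and 20, the same number of genes, 6, was lower and Col4a1 was at 763 and 1815. The share of all genes lower in these deeper cells is not given. Mural markers summed to 1236 CPM in endothelial-like cells of the library labelled knockout (7 of 9 found, Acta2 and Tagln at 0) and 27.2 in those of the library labelled wild type (3 of 9, with Acta2, Tagln, Pdgfrb, Notch3, Kcnj8 and Vtn at 0). Without the cells that held a mural marker UMI, Col4a1 was at 757 and 1910. In the library labelled knockout 1 cell held 40.9% of the Col4a1 UMIs, and in the library labelled wild type 1 cell held 16.6%. Without these cells the levels were 602 and 1677. Lamb1 was found in 5 of 36 cells of the library labelled knockout and 11 of 20 of the library labelled wild type. For Col18a1 these were 4 of 36 and 9 of 20. The highest cell held 36.4% and 26.0% of the Lamb1 UMIs and 48.4% and 26.4% of the Col18a1 UMIs. Without it Lamb1 was at 46.6 and 191 and Col18a1 at 53.1 and 170.

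Sex-linked genes also moved with the label. Among endothelial-like cells that held Y-linked UMIs but none of Xist, 7 in the library labelled knockout and 16 in the library labelled wild type, Col4a1 was at 700 and 1863, Lama4 at 224 and 418, and Col4a2 at 757 and 1134. In these cells 4 of 7 genes passed as lower and Lamb2 as higher, while Col18a1 was 1.10-fold lower and Col4a2, at 1.499-fold, just missed. The share of all genes past 1.5-fold in these cells is not given, so the count has no background beside it. Among those passing as lower, Lamb1 rested on 4 UMIs and Lamc1 on 5 in the library labelled knockout, against 74 and 100 in the library labelled wild type. Col4a1 was lower in the library labelled knockout in each of these subsets. Cells with Xist UMIs and no Y-linked UMI numbered 10 in the library labelled knockout, with Col4a1 at 864, and 0 in the library labelled wild type.

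The 2 chains of collagen IV, whose start sites are printed above, were seen together. Col4a1 had 1.54 UMIs for each of Col4a2 in endothelial-like cells of the library labelled knockout (1.25 to 1.90) and 1.63 in those of the library labelled wild type (1.43 to 1.86). Both were found in 20 of 36 endothelial-like cells of the library labelled knockout, 3 held Col4a1 alone, 1 held Col4a2 alone and 12 held neither, against 15, 3, 1 and 1 of 20 in the library labelled wild type. In mural-like cells the ratio was 1.90 and 2.34.

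**Figure D5:**
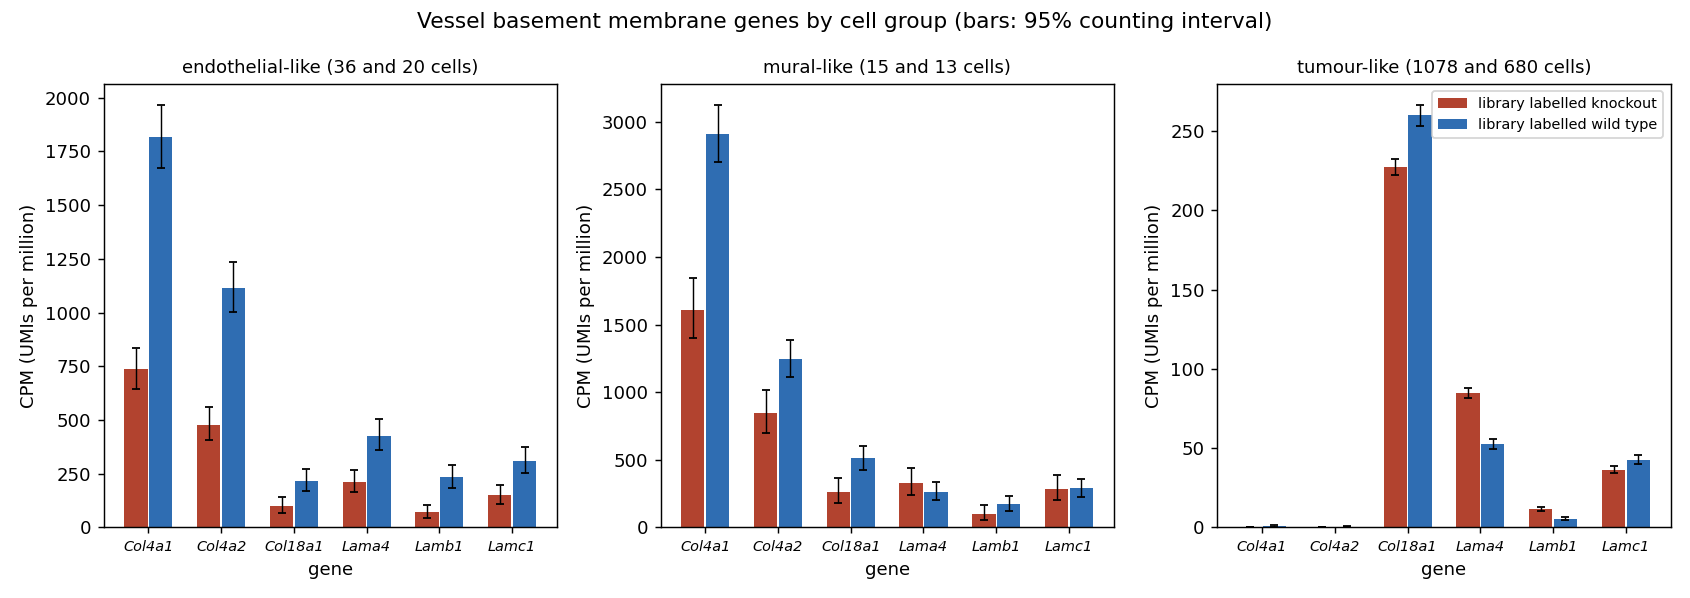
Levels (CPM, vertical axes from 0, a separate scale for each panel) of 6 basement membrane genes in endothelial-like, mural-like and tumour-like cells, the library labelled knockout drawn left of the library labelled wild type, with exact 95% counting intervals. In endothelial-like cells all 6 lie lower in the library labelled knockout, and in tumour-like cells Col4a1 and Col4a2 are near 0 while Col18a1 and Lama4 are not.

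Mural-like cells, the pericytes and smooth muscle of vessel walls by their markers, had 15 and 13 cells, too few for a comparison of the labels, and their levels are given side by side. Col4a1 was at 1610 CPM in the library labelled knockout and 2908 in the library labelled wild type, Col15a1 at 562 and 654, and Col8a1, a short-chain collagen of vessel walls, at 404 and 646. For Col4a1, the highest cell held 48.8% and 23.7% of the UMIs, and the levels without it were 1277 and 2508.5. Col15a1 was found in 3 of 15 cells of the library labelled knockout and 10 of 13 of the library labelled wild type. Lama2, the alpha chain of muscle laminin, was at 487 and 237. Col1a1 was at 262, all 35 UMIs in 1 cell, and 1008. Col3a1 was at 150 and 1172, and Col1a2 at 52.4 and 954. Cells led by Rgs5 numbered 10 and 12 and cells led by Acta2 and Tagln 5 and 1, and the part of this makeup in the levels was not tested.

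Fibroblast-like cells, 7 and 5, carried the interstitial collagens, which form the fibres of connective tissue. Col3a1 was at 4884 CPM in the library labelled knockout, where 1 cell held 385 of 604 UMIs, and at 2047 in the library labelled wild type. Col1a2 was at 2183 and 1664, Col1a1 at 2127 and 925, and Col5a2, a collagen V chain that regulates fibre width, at 978 and 433. Lama2 was at 1245 and 325, but 1 cell held 89.6% of its UMIs in the library labelled knockout, and the level without it was 185. The basement membrane chains were also present, with Col4a1 at 1189 and 1713, Col4a2 at 744 and 876, Lamc1 at 388 and 266 and Lama4 at 323 and 246. In the library labelled knockout 1 cell held 70.1% of the Col4a1 UMIs, and the level without it was 510. For Col4a2 there, 1 cell held 78.3%, and the level without it was 232. The highest cell of the library labelled wild type held 31.6% for Col4a1 and 41.6% for Col4a2. T cell markers summed to 792 CPM in fibroblast-like cells of the library labelled knockout and 177 in the library labelled wild type. Mural markers summed to 695 and 1969 and tumour markers to 962 and 1181. The part of these markers in the collagen and laminin levels was not tested. All 55 genes summed to 18687 CPM in fibroblast-like cells of the library labelled knockout and 11714 in the library labelled wild type, and to 7399 and 12601 in mural-like cells.

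Outside tumour and vessels, single genes stood out. Lama2 was at 108 CPM in oligodendrocyte-like cells of the library labelled knockout and 87.8 in those of the library labelled wild type. Col5a3 was at 109 in neuroblast-like cells of the library labelled knockout, from 12 of 126 cells, and 24.97 in the library labelled wild type, from 1 of 30 cells. Col27a1 was at 163 and 85.6 in the unnamed cluster with microglia markers, 168 and 41 cells, while microglia-like cells had 11.1 and 12.6. After thinning, 23.5% of that cluster's cells of the library labelled knockout and 12.8% of those of the library labelled wild type held Col27a1, against 0.377% and 0.621% of T cell-like cells. Without thinning they were 65.5% and 39.0%, against 2.08% and 1.81% of T cell-like cells.

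Lymphocytes carried a laminin beta chain gene, Lamb3, and T cell-like cells also a gamma chain gene, Lamc1. Lamb3, a beta chain of epithelial laminin, was at 84.6 CPM in B cell-like cells of the library labelled knockout and 110.5 in those of the library labelled wild type, at 83.4 and 73.0 in NK cell-like cells and at 47.7 and 48.2 in T cell-like cells. In tumour-like cells it was at 1.28 and 0.485. Lamc1 was at 110 in T cell-like cells of the library labelled knockout and 92.0 in those of the library labelled wild type, in 38.8% and 29.97% of cells, and at 8.13 and 2.79 in NK cell-like cells. T cell-like cells are thus no background for these 2 genes.

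Genes that act with collagens and laminins were read from 4 lists, in tumour-like cells, against a background of 10.7% called higher and 7.14% called lower at 1.5-fold under the knockout label. Of 28 genes of collagen processing, 20 were measured. Loxl3, which crosslinks collagen, was at least 1.5-fold higher in the library labelled knockout (log2 ratio 0.87), and the prolyl hydroxylase gene P4ha2 (-1.32) and the proteinase enhancer gene Pcolce2 (-0.80) were lower. Of 15 receptor genes, 9 were measured. Itga2 was higher (2.75), at 7.14 CPM in the library labelled knockout and 1.06 in the library labelled wild type, as was Itga1 (1.51), at 33.7 and 11.8, both alpha chains of collagen-binding integrins, and none was lower. Both stood higher in T cell-like cells of both libraries, Itga2 at 10.3 and 11.1 and Itga1 at 79.5 and 119. The part of T cell RNA in their tumour levels was not tested.

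Of 11 basement membrane partners, 5 were measured and Hspg2, the perlecan gene, was higher (0.62). Within no single state was Hspg2 1.5-fold higher. In the libraries labelled knockout and wild type it was at 47.9 and 39.1 CPM in the Tcim state and 81.6 and 78.5 in the Enpp2 state. It was at 30.8 and 24.7 in the Sncaip state and 32.5 and 34.0 in the mitotic state. The part of the unequal state shares was not tested. Of 11 partners of the cartilage-type collagens, 5 were measured, none was higher, and Cnmd (-0.98), a cartilage glycoprotein, and Matn2 (-0.73), a matrix adaptor, were lower. Sox6, a transcription factor of cartilage and of oligodendrocyte precursors, was at 2064 and 1432. The median log2 ratios of the 4 lists were -0.17 for processing, 0.03 for receptors, 0.39 for basement membrane partners and -0.50 for cartilage partners, against 0.01 over all measured genes. Against the other tumour-like cells, at 2-fold in both libraries, Loxl3 and Itga2 were higher in the Enpp2 state (3.80% of all measured genes) and Pcolce2 and Tinagl1, a basement membrane protein, were lower (4.74%). In Enpp2-state cells of the library labelled wild type, with 841214 UMIs in all, few UMIs stood behind Itga2 (5.94 CPM), Pcolce2 (4.76) and Tinagl1 (14.3). In the Sncaip state Tinagl1 was higher (2.12%) and Cnmd and Matn2 were lower (2.99%). In the mitotic state P3h2, a prolyl hydroxylase gene, and Sox5, a partner of Sox6, were lower (3.81%), and in the Tcim state no gene of the lists passed. Sox5 in the mitotic state was at only 1.94 and 1.51 CPM.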

How the data were processed

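Whole-number UMI counts per gene and barcode were deposited by the authors as 2 matrices, 1 per library, from 10x 3′ v3.1 libraries, per the labels' protocols. Cell Ranger 7.1.0, Seurat 5.0.2 and the build mm10 are named in the submitters' processing notes, which give no role or parameters. The matrices hold 32285 mouse and 36601 human genes. Human collagens and laminins had 12 and 13 UMIs in the libraries labelled knockout and wild type and were left out. No column of per-sample values was left unused.

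Of 8369 and 7382 barcodes, barcodes below 500 mouse genes or above 10% mitochondrial UMIs were dropped. Scrublet doublets were then removed (164 and 77 cells; in the library labelled wild type the automatic threshold marked 0.289%, so the expected number was taken). Barcodes were clustered without the members (2000 variable genes, 30 components, 15 neighbours, Leiden resolution 1). Clusters were named where at least 3 and at least 50% of a class's markers were at 20 CPM and 4-fold over the median cluster. The share rule and the split of the mural-like cluster were chosen after seeing the data. UMIs were summed per class and library, and scaled to CPM (counts per 1000000 mouse UMIs) with exact Poisson or conditional 95% intervals. Genes were measured at 100 UMIs (20 in endothelial-like cells for the labels) and called by size alone (1.5-fold between labels, 2-fold in both libraries otherwise). Genes were named where they had at least 100 UMIs in all, or 20 in endothelial-like cells. Members, lists and states were chosen with earlier results of these data known. The ratio and its interval were tested on simulated counts with known folds and counting error only. The cell filter, clustering and naming were not part of that test. scanpy 1.11.5 and leidenalg 0.10.2 did the clustering and scipy 1.17.1 the intervals, under Python 3.11.15. Alternatives were other scaling, no count minimum, another fold, a looser cell filter, doublets kept, a gate on single cells, members among the variable genes, states weighted alike and subsets of endothelial-like cells. Col3a1, Col20a1 and Col7a1 share exons on the same strand with other annotated genes.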

Additional observations from a re-analysis of the deposited data

Results flagged for a closer look

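For 3 genes the difference between the labels ran in opposite directions in 2 groups of cells. The difference between the groups was not tested, since each label is 1 library. Col27a1 had a log2 ratio of 1.21 in the Sncaip state, at 17 CPM in the library labelled knockout and 7.35 in the library labelled wild type, and of -0.62 in the Enpp2 state, at 125 and 191. Lama4 had a log2 ratio of 0.69 in tumour-like cells and -1.005 in endothelial-like cells. Lamb1 had a log2 ratio of 1.13 in tumour-like cells and -1.74 in endothelial-like cells.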

How the results depend on the processing

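No paired analysis was possible because each group is 1 library. Over 23 genes and 6 alternatives in tumour-like cells, 119 of 138 log2 ratios stayed within the counting interval of the main value, 16 moved outside it, and 3 of genes past 1.5-fold reversed. The 3 were Col2a1 (-0.77), Lamb2 (-0.74) and Col27a1 (-0.28), all with the 4 states weighted alike. That setting also gave 3 genes higher and 7 lower between the labels in place of 6 and 5, and a summed log2 ratio of -0.28 in place of 0.13, which was 0.11 with doublets kept. Without a count minimum, 15 genes were higher and 12 lower between the labels, 3 were higher in the Sncaip state, 1 in the mitotic state and 12 in endothelial-like over tumour-like cells. At 1.5-fold, 1 gene was higher in the Tcim state (Col20a1) and 2 in the Sncaip state (Col5a3, Col16a1). The Sncaip state had 0 higher with the looser cell filter and 0 with the gate on single cells. For the counts under these alternatives the share of all genes past the same fold is not given. Among endothelial-like cells that held Y-linked UMIs but none of Xist, 1 gene was higher in the library labelled knockout. This and the other endothelial subsets were chosen after seeing the data. Thinning to 2000 UMIs lowered every share that is given above with both values. The share of endothelial-like cells with Col4a1 in the library labelled knockout instead rose, from 63.9% to 68.2%. There 14 cells below 2000 UMIs were left out of the thinned share. The causes were not tested. In the gate on single cells 519 of 9444 cells lay within 0.1 of the class boundary and 113 of 1536 within 0.1 of the state boundary. Depth limits the values of small groups, with 315656 and 331046 UMIs behind all endothelial-like, 133524 and 256880 behind mural-like and 123668 and 101591 behind fibroblast-like cells of the libraries labelled knockout and wild type.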

Other observations

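Col14a1, a fibril-binding collagen of connective tissue, was at 3.79 CPM in Mmp12 macrophage-like cells of the library labelled knockout and 7.60 in those of the library labelled wild type, from 26 of 466 and 45 of 517 cells. Col6a3, a collagen VI chain, was at 17.2 and 16.2 in microglia-like cells. Col10a1, the collagen of the growth plate, had 27 UMIs in a single fibroblast-like cell of the library labelled wild type. Barcodes below the gene minimum had Col11a1 at 1471 and 709 CPM and Col9a1 at 52.8 and 76.6, against Col4a1 at 1.89 and 6.80.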
